A study of Mus musculus with 8 samples.

Results

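The 10 genes described here encode proteins that neutrophils store in granules, and they were taken by name from the 32285 genes measured. They are the primary granule genes Mpo, Elane, Prtn3 and Ctsg, the secondary granule genes Ltf, Camp, Ngp and Lcn2, and the tertiary granule genes Mmp8 and Mmp9. All 10 were present in the data of both diets. The cells came from the periosteum, the cell layer on the outer bone surface, of left femurs and tibias, and their RNA was sequenced cell by cell in droplets with 10X chemistry. All mice were C57BL/6J males aged 16 weeks, kept on normal diet chow (ND) or on high fat diet chow (HFD), and the labels name no transgene or other treatment. The labels list 4 mice per diet, but the cells of each diet were deposited as 1 matrix in which no cell is assigned to a mouse, so each diet is 1 library and differences between diets have no replicate check.

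Neutrophils make their granules in sequence while they mature from granulocyte-monocyte progenitors. Primary (azurophil) granules are filled at the promyelocyte stage, secondary (specific) granules at the myelocyte stage and tertiary (gelatinase) granules later, and the proteins are stored until the circulating cell releases them. A granule protein can therefore be abundant in a mature cell that no longer holds its mRNA. Bone marrow is the main site of this process.

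Mpo encodes myeloperoxidase, which makes hypochlorous acid from hydrogen peroxide and chloride. Elane, Prtn3 and Ctsg encode the serine proteases neutrophil elastase, proteinase 3 and cathepsin G. Ltf encodes lactoferrin, an iron-binding protein, and Lcn2 encodes lipocalin 2, which binds bacterial siderophores. Camp encodes the precursor of an antimicrobial cathelicidin peptide, and Ngp encodes neutrophilic granule protein, a member of the cystatin family. Mmp8 and Mmp9 encode the matrix metalloproteinases neutrophil collagenase and gelatinase B.

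In GRCm38 (the assembly also called mm10), Prtn3 (chr10:79874476-79883174, plus strand) and Elane (chr10:79886247-79888215, plus strand) are neighbours with 3.1 kb between them. Mpo lies at chr11:87793581-87804413 on the plus strand and Ctsg at chr14:56099881-56102574 on the minus strand. Among the secondary granule genes, 3 lie on chromosome 9: Camp at chr9:109847379-109849617 (minus strand), Ngp at chr9:110419747-110423012 (plus strand) and Ltf at chr9:111019271-111042767 (plus strand), with 570.1 kb between Camp and Ngp and 596.3 kb between Ngp and Ltf. Lcn2 lies at chr2:32384633-32388252 on the minus strand. Mmp8 lies at chr9:7558456-7568485 and Mmp9 at chr2:164940780-164955850, both on the plus strand.

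The 150 bases before each start site were searched on both strands for short motifs of factors known from granulocyte development, in the 9 members with a promoter entry in RefSeq (GRCm38.p6). Mmp9 had no entry. The C/EBP motif TTGCNNAA was found in Ltf, Ngp and Mmp8 and in 5.46% of all 32851 promoters. The PU.1 motif GAGGAAGT was found in Elane and Prtn3 and in 1.63% of all promoters, and the RUNX motif TGTGGT in Ctsg and in 8.40%. The TATA motif TATAAA was found in none of the 9 members and in 7.57% of all promoters. The stretches of 30 bases around these matches are shown because they hold the motifs found in members (PU.1 in 2 of the 4 primary granule genes, C/EBP in 2 of the 4 secondary granule genes and in Mmp8), with the motif in capitals on the strand of the gene (ACCACA is the reverse complement of the RUNX motif, and TTGGGCAA in Ltf that of a C/EBP match). Ngp held a second C/EBP match, TTGGGCAA, 11 to 4 bases before its RefSeq start. Its stretch (chr9:110419778-110419807) lies inside the GENCODE gene and is not shown. A match is a description of the sequence, and no binding was measured.
Elane: cgtgtcccaggGAGGAAGTagggctgtggc
Prtn3: caaactggaagGAGGAAGTgggacccacag
Ctsg: actgtgtgggacACCACAtgggcgtgggca
Ltf: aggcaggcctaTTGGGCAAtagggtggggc
Ngp: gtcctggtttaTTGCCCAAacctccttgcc
Mmp8: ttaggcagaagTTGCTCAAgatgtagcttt
These stretches lie at chr10:79886216-79886245 (plus strand, Elane), chr10:79879561-79879590 (plus strand, Prtn3, before the RefSeq start but inside the longer GENCODE gene), chr14:56102636-56102665 (minus strand, Ctsg), chr9:111019206-111019235 (plus strand, Ltf), chr9:110419659-110419688 (plus strand, Ngp) and chr9:7558399-7558428 (plus strand, Mmp8).

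The ND library held 6314 cell barcodes with 48558889 UMIs and the HFD library 6636 with 49940976. A UMI (unique molecular identifier) marks 1 captured RNA molecule at its 3′ end, so a molecule counts once whatever the length of the gene. Only barcodes between 500 and 8000 genes with mitochondrial UMIs below 20% entered the analysis, which left 6029 ND and 6224 HFD cells with medians of 4610 and 4823.5 UMIs. The libraries shared 15 barcodes, 14 of them among kept cells. Levels are given as UMIs per 1000000 UMIs summed over the cells of a class, and intervals are exact at the 95% level and reflect counting error alone.

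Cells were clustered without the 10 genes and named from other marker genes, so that a name never rests on a member. Granulocytic cells made up 2748 of 6029 ND cells (45.6%) and 2710 of 6224 HFD cells (43.5%). They fell into granulocyte-monocyte progenitor-like cells (284 ND and 251 HFD), cycling neutrophil precursor-like cells (153 and 158), immature neutrophil-like cells (278 and 365) and mature neutrophil-like cells (2033 and 1936). Every marker fixed for each of these classes was detected in it. The progenitor-like class was mixed. In 199 of its 284 ND cells and 172 of its 251 HFD cells, the primary set gave under 1% of the UMIs, and the marker Ms4a3 was low in them. The mature cells came in 4 clusters, of which cluster 14 held 238 ND but 44 HFD cells, was led by Osm, G0s2 and Cxcr2, and contained 22.0% of cells with a high doublet score. Because it came mostly from 1 library, results in mature cells are also given without it. Median depth was 25531.5 (ND) and 23354 (HFD) UMIs in progenitor-like cells and higher, at 30089 and 28012, in cycling precursor-like cells. It was lower in immature cells (12919 and 12993) and lowest in mature cells (3638 and 3728). All differences between stages are descriptions, because genes that vary with the members helped to define the clusters.

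The 4 primary granule genes were highest in the progenitor-like cells, in which Elane reached 6467 UMIs per 1000000 in ND and 6963 in HFD. Prtn3 followed at 4514 and 4183, Mpo at 2378 and 2579, and Ctsg at 1130 and 1280. In neither library did the counting intervals of neighbours in this order overlap. All 4 were lower in the cycling precursor-like cells, where Elane stood at 2610 (ND) and 2023 (HFD), Prtn3 at 1637 and 1037, Mpo at 452 and 306, and Ctsg at 111 and 97.2. In immature neutrophil-like cells each of the 4 was at 13.2 or less per 1000000. The set as a whole was at 38.1 (95% interval 32.1 to 44.8) in ND and 28.2 (23.6 to 33.3) in HFD immature cells, and at 78.2 (72.5 to 84.3) and 84.6 (78.6 to 90.9) in mature cells. For comparison, cells of other lineages (B, B precursor, T, NK, erythroid, mesenchymal, osteoblast, endothelial and pericyte-like) with under 1% of their UMIs from the 10 genes held 68.5 (64.6 to 72.7) and 58.1 (54.7 to 61.6) UMIs of the primary set per 1000000. After thinning of every cell to 1000 UMIs, Elane was seen in 3.21% of ND mature cells against 2.71% of those cells of other lineages, and in 3.77% against 2.69% in HFD. Without thinning, the primary granule level of immature cells was thus below that of cells of other lineages in both libraries, and that of mature cells overlapped with it in ND and was above it in HFD. After thinning, the immature level rested on 13 UMIs in ND and 20 in HFD, and no order is read from it.

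The secondary granule genes had their 2 highest levels in the cycling precursor-like and the immature cells. Camp was at 62844 (ND) and 65700 (HFD) UMIs per 1000000 in cycling precursor-like cells and at 52462 and 56192 in immature cells, whereas Ngp went from 52556 and 57792 to 65932 and 67377. Ltf went from 6442 to 12926 between these stages in ND and from 7363 to 13041 in HFD. Lcn2 was at 12363 (ND) and 12444 (HFD) in the cycling precursor-like cells and at 20842 and 19445 in the immature cells. Camp was thus the only secondary granule gene that was higher in the cycling precursor-like than in the immature cells, in both libraries. The 4 genes together gave 13.4% of all UMIs of cycling precursor-like cells in ND and 14.3% in HFD, and 15.2% and 15.6% of those of immature cells. In the progenitor-like cells they gave 0.232% and 0.105%.

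Mature clusters 4, 2 and 0 are listed here by falling secondary granule level. No separate measure of maturation ordered them, so this is not read as a sequence in time. Mmp8 was at its highest in cluster 4, the one with the most secondary granule mRNA. In ND, Ngp went from 19379 UMIs per 1000000 in cluster 4 to 5546 in cluster 2 and 343 in cluster 0, and in HFD from 23730 to 9675 and 552. Lcn2 kept a higher level than the others in cluster 0, at 1267 (ND) and 1309 (HFD). Ltf was there at 39.3 (ND) and 49.1 (HFD) against 15.5 and 21.5 in cells of other lineages, and Camp at 194 and 306 against 97.4 and 122. Mmp8 was at 14.5 (ND) and 41.7 (HFD) in cycling precursor-like cells, at 1240 and 1105 in immature cells and at 3090 and 3033 in mature cluster 4, and then at 513 and 642 in cluster 0. Mmp9 covered a smaller range among these clusters, from 1370 and 1363 in cluster 4 to 906 and 932 in cluster 0. In cluster 14 it was at 1580 in ND, above the other mature clusters of that library, and at 933 in HFD. Mature cluster 0, whose leading genes include Il1b, Il1r2 and Csf3r, therefore held Mmp9 above Mmp8, in the opposite order to cluster 4.

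**Figure D1:**
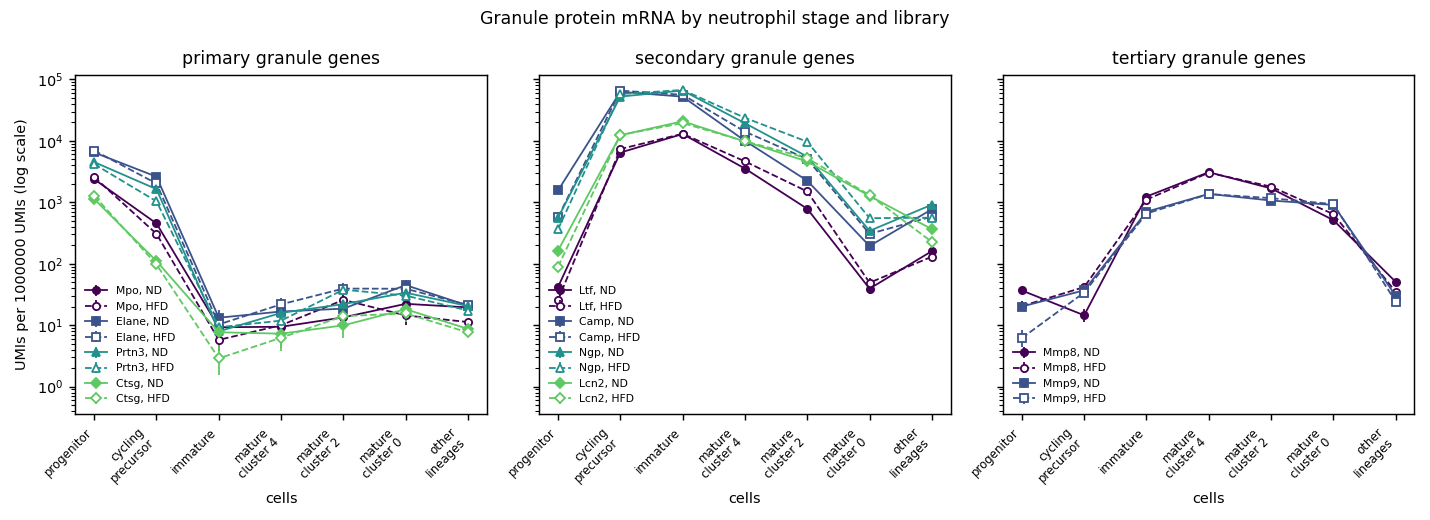
Levels of the 10 genes (UMIs per 1000000 UMIs, log axis) along the neutrophil stages and in all cells of other lineages, with 1 panel per granule set. Filled points are ND, open points HFD and bars exact 95% counting intervals. The cells of other lineages include those with 1% or more of their UMIs from the 10 genes. The mature clusters are placed by falling secondary granule level and not by a measure of time. Primary granule genes are highest in progenitor-like cells, secondary ones in cycling precursor-like and immature cells and, among the clusters plotted (cluster 14 is not), tertiary ones in mature cluster 4, for example Mmp8 at 3090 (ND) and 3033 (HFD).

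As shares of all UMIs, immature cells held less primary, more secondary and less tertiary granule mRNA than mature cells. The log2 ratio of immature over mature was -1.32 for the primary set, 2.76 for the secondary set and -0.72 for the tertiary set over both libraries. By library, these log2 ratios were -1.04, 3.01 and -0.64 in ND and -1.58, 2.55 and -0.78 in HFD. The primary ratio compared small sums, of 144 UMIs in 278 ND and 137 in 365 HFD immature cells. Mature cells held 693 in 2033 ND and 739 in 1936 HFD cells. Median depth also differed, at 12919 (ND) and 12993 (HFD) UMIs in immature cells and 3638 and 3728 in mature cells. The primary ratio is therefore not read as a difference between stages. The tertiary ratio took the opposite sign, 0.36, when cells were clustered at a resolution of 0.25 in place of 0.5. At 0.25 the immature class held 723 ND and 738 HFD cells, with Mmp8 among its leading genes. The 2 settings therefore compare different groups of cells.

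Single cells showed how far the programmes overlapped. A cell was counted for the primary or the secondary set when that set made up 1% or more of its UMIs, and for the tertiary set at 0.1%. Among progenitor-like cells, 85 of 284 ND cells (29.9%, 95% interval 24.7 to 35.6) and 79 of 251 HFD cells (31.5%, 25.8 to 37.6) counted for the primary set. These cells held 92.6% (ND) and 94.5% (HFD) of the primary granule UMIs of their class, with Elane at 15595 and 17988, Prtn3 at 10078 and 10140, Mpo at 5170 and 6303 and Ctsg at 2339 and 2944 UMIs per 1000000. Ms4a3, a gene of the granulocyte-monocyte lineage, was at 1149 and 1310 in them and at 24.4 and 20.6 in the remaining cells of the cluster. Those remaining cells, 199 in ND and 172 in HFD, held Car1, an erythroid carbonic anhydrase, at 724 and 650. The erythroid markers together were at 1986 and 1214 in them, against 30.4 and 27.8 in the cells that counted. The levels, shares and diet ratios of the progenitor-like class include these remaining cells. Their lower Elane, at 266 and 223, follows from how the cells were split.

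Cells with primary and secondary granule mRNA together were found in the progenitor-like and cycling precursor-like classes. In these classes 8.97% and 5.47% of cells had a high doublet score. Whether the cells with both sets are doublets was not tested. Both sets passed 1% in 11 of 284 ND and 2 of 251 HFD progenitor-like cells and in 19 of 153 ND (12.4%, 7.64 to 18.7) and 13 of 158 HFD (8.23%, 4.45 to 13.7) cycling precursor-like cells. None of the 278 ND and 365 HFD immature cells did, which allows a share of up to 1.08% and 0.822%, and none of the 2033 ND and 1936 HFD mature cells did (up to 0.148% and 0.155%). Secondary granule mRNA alone or with another set passed 1% in 151 of 153 ND and all 158 HFD cycling precursor-like cells and in all immature cells. The median cell gave 14.5% (ND) and 15.4% (HFD) of its UMIs to the secondary set in the cycling precursor-like class, and 15.1% and 15.5% in the immature class. The tertiary set passed 0.1% in 1 of 153 ND and 3 of 158 HFD cycling precursor-like cells, but in 165 of 278 ND (59.4%) and 215 of 365 HFD (58.9%) immature cells, all of which still held the secondary set. In mature cells, 21.7% (ND) and 27.0% (HFD) still passed 1% of secondary granule UMIs, whereas 54.4% and 52.0% passed for the tertiary set alone.

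**Figure D2:**
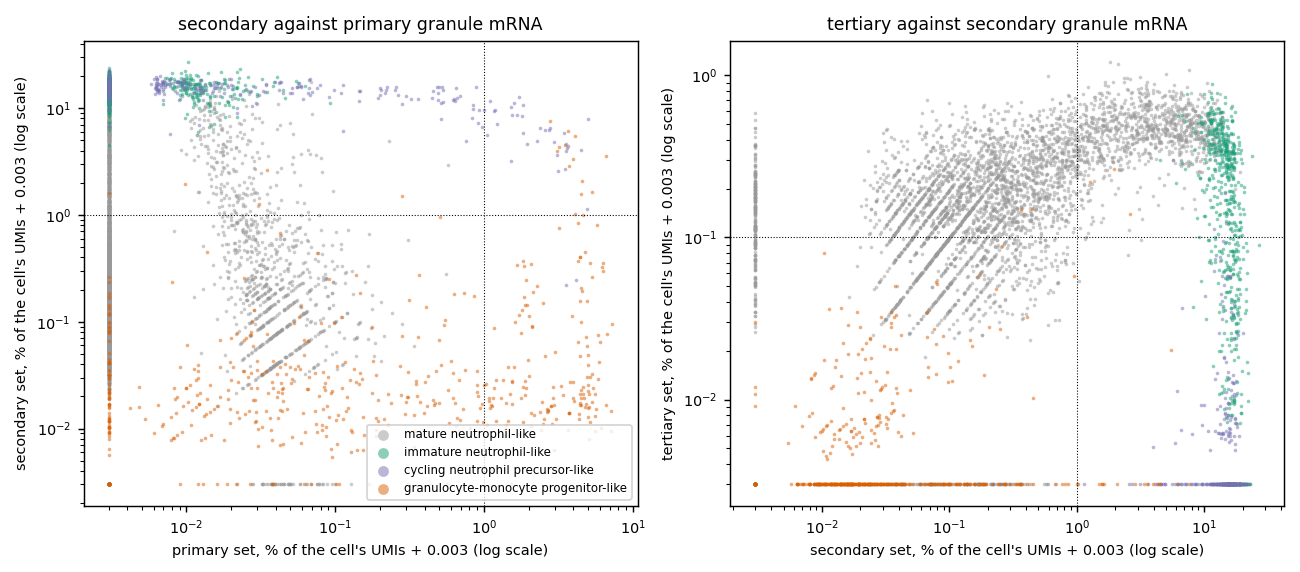
Each point is 1 granulocytic cell of either library, placed by its share of UMIs from the primary and secondary sets (left) and from the secondary and tertiary sets (right), on log axes with 0.003 added, and coloured by class. Dotted lines mark 1% for the primary and secondary sets and 0.1% for the tertiary set; the 19 ND and 13 HFD cycling precursor-like cells above both lines of the left panel join the primary and the secondary arm.

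For each set, the genes with the most similar levels over classes were picked by correlation, so their likeness is the rule of choice. Over the 17 named classes of both libraries (34 points that share 2 libraries), the 5 genes whose levels were most like the summed primary set were Ms4a3 (Pearson r 0.96), Prss57 (0.94), Mfsd13a (0.89), Tspoap1 (0.87) and Siglecf (0.86). For the secondary set they were S100a8 (0.97), S100a9 (0.96), Wfdc21 (0.96), Mapk13 (0.94) and Itgb2l (0.94). For the tertiary set they were Retnlg (0.92), Fpr2 (0.91), Adam8 (0.90), Fpr1 (0.90) and Ceacam10 (0.90). Prss57 encodes a serine protease of the same family as elastase, S100a8 and S100a9 the subunits of calprotectin, and Fpr1 and Fpr2 formyl peptide receptors. Ms4a3, Prss57, Itgb2l and Retnlg were also among the markers that named the classes. Most of the 17 classes are not granulocytic, so these correlations do not show an order of stages. They describe the classes and carry no test.

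For the comparison of diets, levels were summed over each class and the ratio of HFD over ND was taken with its counting interval, as the libraries allow no test. Over all granulocytic cells the primary set was lower in HFD (5399 UMIs per 1000000 in ND, 4501 in HFD, log2 ratio -0.26, 95% interval -0.27 to -0.25), the secondary set was higher (55339 and 66978, 0.28, 0.27 to 0.28) and the tertiary set was close to even (1396 and 1478, 0.08, 0.06 to 0.10). None of the 10 genes differed by 1.5-fold or more, against 2.71% of the 8363 genes with at least 200 UMIs. Among single genes, Prtn3 was lowest in HFD (1707 and 1268, log2 ratio -0.43) and Ltf highest (3661 and 4749, 0.38). These pooled ratios moved with the make-up of the class. By number, progenitor-like cells gave 10.3% of granulocytic cells in ND and 9.26% in HFD, immature cells 10.1% and 13.5%, and mature cells 74.0% and 71.4%. The sums weight each cell by its UMIs. Of all kept UMIs, granulocytic cells gave 51.9% in ND and 48.6% in HFD. Progenitor-like cells gave 16.0% and 12.5%, immature cells 7.86% and 9.84%, and mature cells 18.4% and 17.7%. When every stage was weighted alike in ND and HFD, the log2 ratios were -0.029 for the primary, 0.11 for the secondary and -0.036 for the tertiary set.

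Within the progenitor-like cells, the primary granule genes stayed within 1.5-fold between diets. Their log2 ratios of HFD over ND were 0.11 for Elane, -0.11 for Prtn3, 0.12 for Mpo and 0.18 for Ctsg. With every cell thinned to 1000 UMIs, Mpo was at 0.52 (0.34 to 0.70) and Ctsg at 0.57 (0.32 to 0.82). Of the 9 members with at least 200 UMIs there, 5 were 1.5-fold or more lower in HFD, against 2.15% of 6187 genes in either direction. These were the 4 secondary granule genes and Mmp8, with Camp at 1558 in ND and 569 in HFD (log2 ratio -1.45, -1.51 to -1.40), Ngp at 557 and 363 (-0.62), Lcn2 at 164 and 89.4 (-0.87), Ltf at 41.9 and 25.6 (-0.71) and Mmp8 at 36.7 and 20.4 (-0.84). Few cells held most of the Camp UMIs: the 5 cells with the most Camp UMIs held 60.9% of the Camp UMIs of the class in ND and 84.0% in HFD. For the summed secondary set, the 5 richest cells held 54.3% and 72.9%. The median progenitor-like cell gave 0.0157% (ND) and 0.0209% (HFD) of its UMIs to the secondary set. The lower level in HFD is therefore one of the sums and not of the typical cell. After removal of the cells with the highest doublet scores, Camp was at 1417 and 549 (-1.37). Then 4 members remained past 1.5-fold, without Ngp (-0.41), against 1.97% of 5939 genes in either direction. With every cell thinned to 1000 UMIs, Camp was at -1.38, whereas Ngp (-0.18), Lcn2 (-0.53), Ltf (-0.11) and Mmp8 (-0.43) were within 1.5-fold and had intervals that included 0. Before thinning, Ltf rested on 323 (ND) and 158 (HFD) UMIs and Mmp8 on 283 and 126. Thinning left fewer, so no absence of a difference is read from these intervals. The part of single cells and doublets in the difference was not tested further.

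In cycling precursor-like cells the primary granule genes were lower in HFD. Prtn3 was at 1637 in ND and 1037 in HFD (log2 ratio -0.66, -0.71 to -0.61), Mpo at 452 and 306 (-0.56, -0.66 to -0.46), Elane at 2610 and 2023 (-0.37) and Ctsg at 111 and 97.2 (-0.19, -0.38 to 0.0036). Of the 10 members, Prtn3 and Mmp8 differed by 1.5-fold or more, against 3.17% of 3529 genes. The 5 richest cells gave 30.7% of the primary granule UMIs of the class in ND and 50.2% in HFD, against 9.55% and 13.3% in progenitor-like cells. With thinning Prtn3 was at -0.46 (-0.78 to -0.15), within 1.5-fold. Mmp8, at 14.5 in ND and 41.7 in HFD (log2 ratio 1.52, 1.11 to 1.95), rested on 67 and 178 UMIs, of which 5 cells held 73.1% and 92.7%. After doublet removal Mmp8 was at 7.42 and 27.9 (1.89, 1.34 to 2.52) on 33 and 114 UMIs, fewer than the 200 needed to be counted. This left Prtn3 (-0.65) as the member counted past 1.5-fold, against 2.96% of 3384 genes in either direction. The secondary granule genes stayed close together between diets, with log2 ratios from 0.01 for Lcn2 to 0.19 for Ltf.

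In immature cells the secondary granule genes were nearly level between diets, with log2 ratios of 0.01 for Ltf, 0.10 for Camp, 0.03 for Ngp and -0.10 for Lcn2. Mmp8 (-0.17, -0.22 to -0.11) and Mmp9 (-0.10, -0.17 to -0.02) were slightly lower in HFD. None of the 6 members with at least 200 UMIs differed by 1.5-fold, against 3.25% of 2828 genes.

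In mature cells the secondary granule mRNA was higher in HFD. Camp was at 4183 in ND and 6891 in HFD (log2 ratio 0.72, 0.70 to 0.74), Ltf at 1404 and 2189 (0.64, 0.61 to 0.67), Ngp at 8173 and 11889 (0.54, 0.53 to 0.55) and Lcn2 at 5192 and 5644 (0.12, 0.10 to 0.14). Mmp8 (0.02, -0.01 to 0.05) and Mmp9 (-0.03, -0.07 to 0.0069) had intervals that included 0. Camp and Ltf, 2 of the 10 members, differed by 1.5-fold or more, against 4.23% of 4493 genes. Without cluster 14 the log2 ratio was 0.81 for Camp, 0.68 for Ltf and 0.59 for Ngp. All 3 passed 1.5-fold, against 3.47% of 4210 genes in either direction. Much of this mRNA was in a minority of the mature cells. Camp reached 10 or more UMIs in 320 of 2033 ND cells (15.7%) and 426 of 1936 HFD cells (22.0%). The median mature cell gave 0.209% (ND) and 0.261% (HFD) of its UMIs to the secondary set.

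The direction was shared by the clusters with many cells of both libraries. In cluster 4, Camp was at 10020 in ND and 14133 in HFD (log2 ratio 0.50). In cluster 2 it was at 2246 and 5061 (1.17), and in cluster 0 at 194 and 306 (0.65). The 5 cells of cluster 2 with the most Camp UMIs held 40.0% (ND) and 20.6% (HFD) of the Camp UMIs of that cluster. Ngp and Ltf were likewise higher in HFD in these 3 clusters, with the interval of Ltf in cluster 0 including 0. In cluster 14 all 6 secondary and tertiary granule genes were lower in HFD, with Camp at -0.32, Lcn2 at -1.17 and Mmp8 at -1.23. The HFD side was 44 cells, and the 5 richest held 93.3% of the Camp, 49.6% of the Lcn2 and 44.2% of the Mmp8 UMIs. Cluster 4, the mature cluster richest in secondary granule mRNA, also made up more of the granulocytic cells in HFD (17.2%, 15.8 to 18.7) than in ND (13.6%, 12.3 to 14.9).

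**Figure D3:**
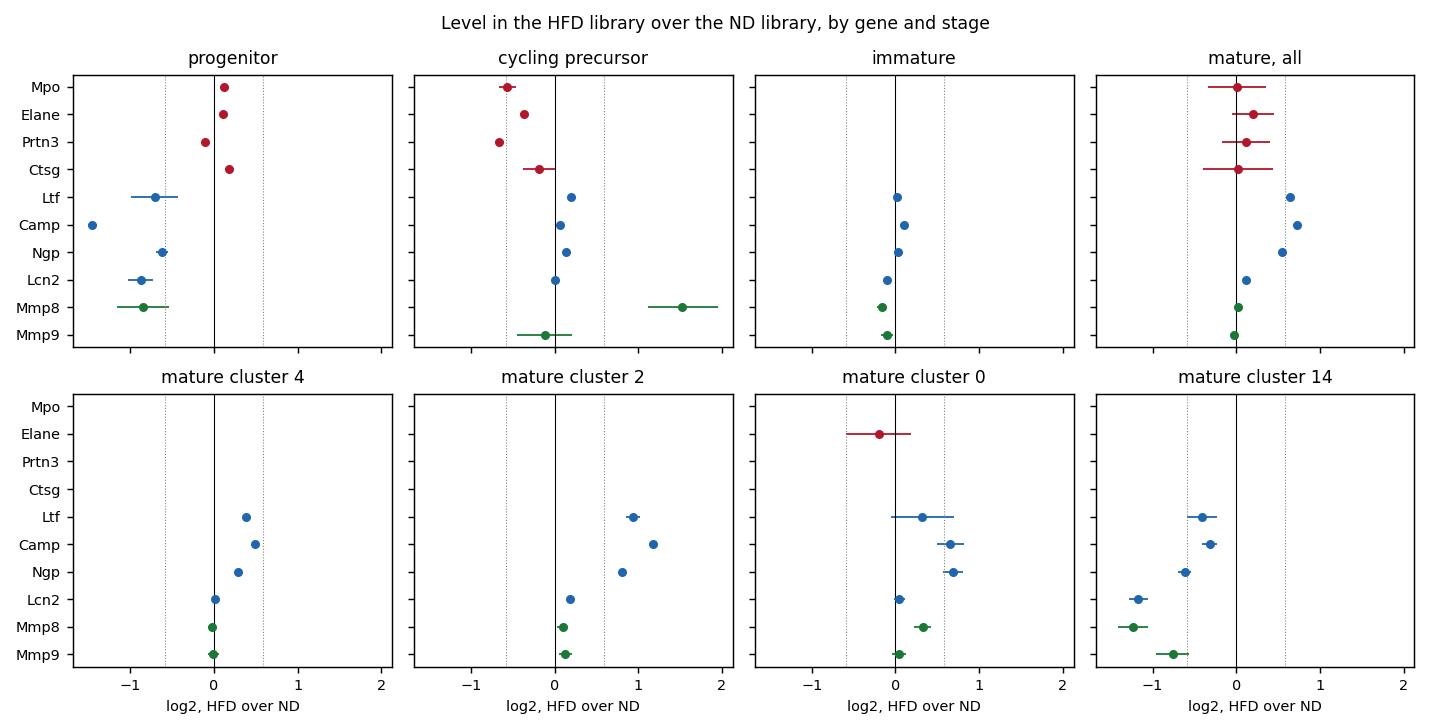
Log2 ratio of HFD over ND for each member with at least 200 UMIs over both libraries, by stage and mature cluster, with exact 95% counting intervals as bars, solid lines at 0 and dotted lines at 1.5-fold. In summed UMIs, secondary granule genes (blue) are lower in HFD in progenitor-like cells (Camp -1.45) and higher in mature cells (Camp 0.72). In progenitor-like cells, 5 cells hold 60.9% (ND) and 84.0% (HFD) of the Camp UMIs. Red is primary and green tertiary.

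Of 14 further granule protein genes, 13 had at least 200 UMIs in granulocytic cells. The interval of the HFD over ND ratio lay above 0 for 10 and below 0 for 2 of them, against 8.57% and 32.7% of all 8363 genes tested, and the median log2 ratio was 0.14, beside -0.10 over those genes. Whether an interval includes 0 depends on the UMI count. That count reached 326186 in ND for Retnlg but starts at 200 over both libraries among all genes tested, so these shares are not alike. Olfm4, which encodes a protein of specific granules, had the highest log2 ratio (0.73, 0.67 to 0.80), followed by Cybb, the catalytic subunit of the NADPH oxidase (0.29). The lowest were Prss57 (-0.12) and Fcnb, a ficolin (-0.06). These pooled ratios also carry the make-up of the class. In cycling precursor-like cells the log2 ratio was 1.57 for Olfm4 (103 in ND and 306 in HFD), 0.25 for Cybb and -0.027 for Fcnb. In mature cells it was 0.12 for Olfm4 and 0.23 for Cybb, and the level of Fcnb was low (2.03 and 2.86). Within immature cells the log2 ratio was 0.33 for Olfm4, 0.02 for Cybb and 0.26 for Fcnb. The level of Prss57 was low there, at 5.29 in ND and 3.29 in HFD, and no ratio is read from it. Prss57 was highest in progenitor-like cells, at 105 in ND and 123 in HFD, with a log2 ratio of 0.23. Among 7 genes for processing, packing and inhibition of granule proteins, none reached 1.5-fold and the median was 0.05. Srgn, which encodes the granule proteoglycan serglycin, had a log2 ratio of -0.07, Serpinb1a, an inhibitor of elastase, of 0.07 and Cd63 of 0.08. All 8 receptors also stayed within 1.5-fold, with a median of -0.09, and the chemokine receptors Cxcr4 (-0.31) and Cxcr2 (-0.24) were the lowest and Ly6g (0.26) the highest.

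Among 9 transcription factors of granulocyte development, 2 were 1.5-fold or more lower in HFD and none was higher, with a median log2 ratio of -0.18. Over all genes tested, 2.25% were that much lower in HFD and 0.466% that much higher. Klf6 was at 580 UMIs per 1000000 in ND and 332 in HFD (-0.80, -0.84 to -0.76) and was lower in HFD in each of the 4 stages. Gfi1, a repressor needed for granulocyte differentiation, was at 9.004 and 5.20 (-0.79, -1.12 to -0.47). This pooled ratio also carries the make-up of the class. In progenitor-like cells, where Gfi1 was highest, it was at 16.3 and 12.5 with a log2 ratio of -0.38, within 1.5-fold. Its level was low in mature cells (3.05 and 0.801), and no ratio is read from it there. The highest were Cebpb (0.15) and Spi1, which encodes PU.1 (0.14).

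Granule mRNA was also counted in cells of other lineages. In 2540 ND and 2796 HFD cells of other lineages, the 10 genes were at 2361 and 1620 UMIs per 1000000. Most of these UMIs were in few cells: 24 ND cells (0.945%) and 28 HFD cells (1.00%) with 1% or more of their UMIs from the 10 genes held 82.8% and 74.8% of the total. Of these cells, 22 of 24 in ND and 14 of 28 in HFD had high doublet scores, and 12 and 16 of them were mesenchymal-like. Between diets, 3 of the 10 members, Mpo, Ngp and Lcn2, were 1.5-fold or more lower in HFD. Of all 10328 genes, 8.56% differed by that much in either direction, 177 lower and 707 higher in HFD. With doublets removed, 3 members were instead higher in HFD (Ltf, Camp and Ngp), against 9.21% of 9954 genes in either direction. Without the cells at 1% or more, 4 were lower (Mpo, Lcn2, Mmp8 and Mmp9), against 8.61% of 10244 genes in either direction. No direction between diets is therefore read from these cells.

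In the remaining cells of other lineages, the 10 genes were at 418 UMIs per 1000000 in both ND (95% interval 408 to 428) and HFD (408 to 427). Ngp was at 106 (ND) and 139 (HFD), Camp at 97.4 and 122, and Lcn2 at 87.1 and 55.4, so that these 3 genes led here as well. Their order was not the same in every class: in ND, Lcn2 had more UMIs than Ngp or Camp in mesenchymal-like cells (594, against 453 and 328) and in endothelial-like cells (128, against 67 and 66). Whether some of these cells express Lcn2 was not tested. The level was of the same order in unrelated classes, at 431 (ND) and 577 (HFD) in B cell-like, 389 and 340 in T cell-like, 544 and 382 in mesenchymal-like, 561 and 615 in endothelial-like and 198 and 271 in macrophage-like cells. With every cell thinned to 1000 UMIs, 25.6% of these ND cells and 34.2% of these HFD cells had a UMI of a secondary granule gene. Such a UMI alone does not mark a cell as granulocytic in these libraries.

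Basophil/mast cell-like cells (47 ND and 53 HFD) differed from these classes in the mix of primary granule genes. Ctsg was at 2047 UMIs per 1000000 in ND and 2865 in HFD, and Mpo was at 1410 and 1727. This Ctsg level was above that of the mixed progenitor-like class as a whole (1130 and 1280). It was not above that of the progenitor-like cells that counted for the primary set (2339 and 2944), which were chosen by their primary granule share. Elane was at 53.4 and 79.6 and Prtn3 at 168 and 88.7. Ctsg thus made up 55.7% (53.4 to 57.9) of the primary granule UMIs in ND and 60.2% in HFD, against 7.80% and 8.53% in progenitor-like cells, and Elane made up 1.45% and 1.67% against 44.6% and 46.4%. In ND, 18 of 47 cells had 10 or more Ctsg UMIs, 10 had 10 or more Mpo UMIs and 1 had as many of Elane; in HFD the numbers were 21, 13 and 1 of 53. Every cell with 10 or more Mpo UMIs also had as many of Ctsg. The cluster also held the proteases Mcpt8 (12186 and 14750 UMIs per 1000000) and Cpa3 (2806 and 3607), which were among the markers that named it, and Ms4a3 at 481 and 463.

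Monocyte-like cells (278 ND and 246 HFD) held Mmp8 at 106 (ND) and 108 (HFD) UMIs per 1000000, against 25.1 and 11.6 in cells of other lineages with under 1% of UMIs from the 10 genes. Prtn3 made up 55.9% (48.9 to 62.6) of their primary granule UMIs in ND and 50.3% (43.0 to 57.5) in HFD, against 29.5% and 30.1% in all cells of other lineages. Mmp9 was at 11.5 and 2.32, and Mpo, Elane and Ctsg were each at 21.7 or less.

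**Figure D4:**
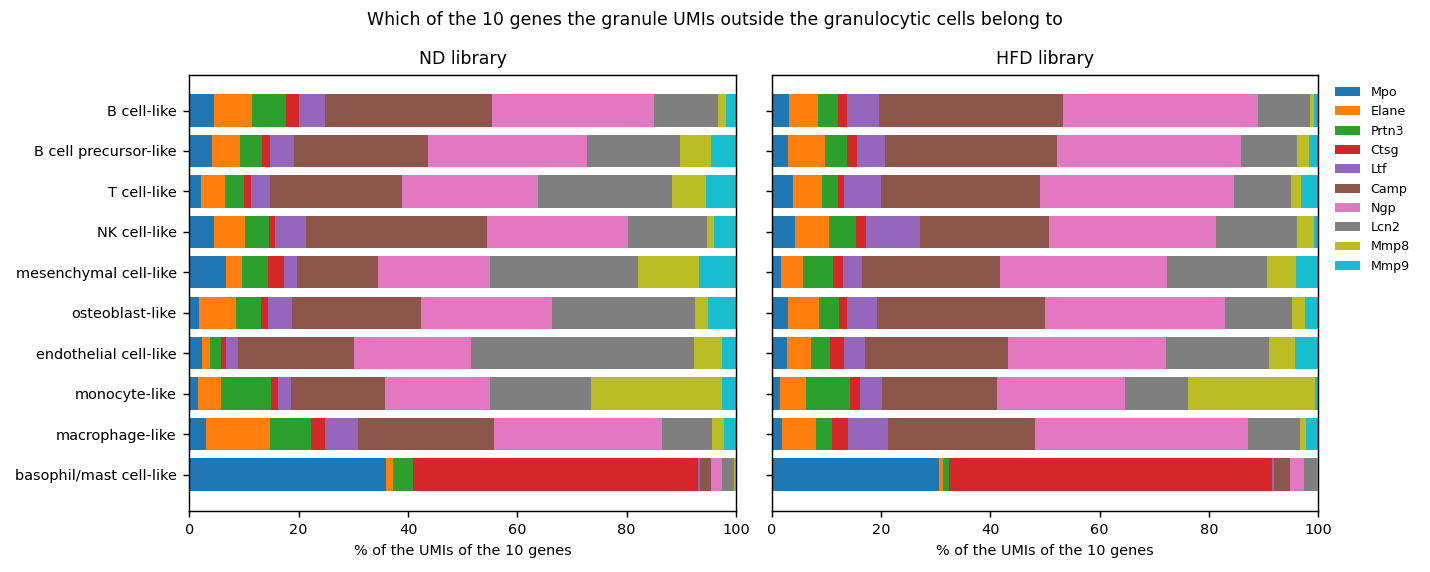
Share of the UMIs of the 10 genes (%) that belongs to each gene, for classes outside the granulocytic cells in the ND (left) and HFD (right) libraries, over cells with under 1% of their UMIs from the 10 genes. Camp and Ngp give large parts of many bars, Lcn2 gives the largest part of the ND mesenchymal-like and endothelial-like bars, Ctsg (red) and Mpo (dark blue) fill the basophil/mast cell-like bars, and Mmp8 (olive) is widest in monocyte-like cells.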

How the data were processed

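Periosteal cells were measured as 1 pooled library for each diet (ND, HFD). The authors deposited raw UMI counts per gene and cell barcode, made with Cell Ranger 6.0.1 on mm10 per the submitters' processing notes, without normalization. Groups were taken from the diet in the sample labels. The barcodes share 1 suffix and no column names a mouse, so that no test between diets was made.

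Kept cells (over 500 and under 8000 genes, under 20% mitochondrial UMIs) of both libraries were clustered in Seurat 5.3.0 (SCTransform with S and G2M scores regressed, 30 principal components, Louvain resolution 0.5), with the 10 genes left out of the variable genes. Clusters were named from marker lists that hold none of the 10 genes, and the limits for a name were set after the clusters were seen. Scrublet (scanpy 1.11.5) called only 10 ND and 11 HFD doublets at its automatic threshold, which was judged not to have worked, so the 5% of cells with the highest scores were taken as high-scoring instead and kept unless stated. UMIs were summed per class and library, with exact Poisson, Clopper-Pearson and binomial intervals (95%, counting error only), 0.5 added to both counts of a ratio, and 3 counts as the limit for a count of 0. Genes were counted past 1.5-fold, or by their interval, only with at least 200 UMIs over both libraries in a class. Ratios of members were computed at any count. The computation was tested on simulated counts. Likeness was Pearson's r on log2 of UMIs per 1000000 with 10 added. Gene positions are from GENCODE M21 and promoters from RefSeq (GRCm38.p6).

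The 10 members, the gene lists and the rule for named genes (all members, the 2 highest and 2 lowest of each list, the 5 genes most like each set) were chosen with earlier results of these data known. Cluster markers and other genes that describe a cluster or cell class are named outside that rule. Single genes that the rule would name are not reported here in 2 of the lists. Alternatives changed the clustering, doublets, depth, denominator, mitochondrial limit, averaging and stage weights.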

Additional observations from a re-analysis of the deposited data

Results flagged for a closer look

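Members whose ratio of HFD over ND had opposite signs in different stages were singled out, and the difference between stages was not tested. In progenitor-like cells the log2 ratio was -0.71 for Ltf, -1.45 for Camp, -0.62 for Ngp, -0.87 for Lcn2 and -0.84 for Mmp8, and -1.15 and -1.09 for the summed secondary and tertiary sets. There, 5 cells held 54.3% (ND) and 72.9% (HFD) of the secondary granule UMIs. The secondary share of the median progenitor-like cell was 0.0157% in ND and 0.0209% in HFD. In mature cells it was 0.64 for Ltf and 0.72 for Camp. In cycling precursor-like cells it was 1.52 for Mmp8, which rested on 67 ND and 178 HFD UMIs.

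The barcodes left out of the analysis (285 in ND and 412 in HFD, most with too few genes) also held granule UMIs. Per 1000000 UMIs, the primary set was at 838 in ND and 1032 in HFD, the secondary set at 3544 and 15485, and the tertiary set at 170 and 357. The secondary set made up 1% or more of the UMIs in 18 of the ND and 75 of the HFD barcodes left out. Whether these barcodes hold granulocytic cells was not tested. S100a8 and S100a9, which encode calprotectin, were together at 14145 and 41016 over all barcodes left out.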

How the results depend on the processing

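No paired analysis was possible because each diet is 1 pooled library whose columns carry no replicate numbers, and no replicate could be left out for the same reason. In all granulocytic cells, the log2 HFD/ND ratio of the primary set was -0.26 and stayed below 0 in every setting run: -0.28 with the members kept for clustering, -0.14 at resolution 0.25 and -0.14 at resolution 1, -0.17 without doublets, -0.12 with cells thinned to 1000 UMIs, -0.19 without the members, S100a8 and S100a9 in the denominator, -0.14 as a mean over cells, -0.029 with the same stage weights and -0.34 without mature cluster 14. In the same order of settings, the secondary set (0.28) was at 0.27, 0.17 and 0.17, 0.22, 0.37, 0.35, 0.37, 0.11 and 0.23, always higher in HFD. With a mitochondrial limit of 10%, the 3 sets were at -0.26, 0.28 and 0.08. The tertiary set (0.08) kept its sign with the members kept (0.09), without doublets (0.043), with thinning (0.0061), with the other denominator (0.16) and without cluster 14 (0.27), but was -0.012 at resolution 0.25, -0.0099 at resolution 1, -0.00997 as a mean over cells and -0.036 with the same stage weights.

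Of the single genes, Mpo turned to 0.25 with thinning and 0.055 with the same stage weights, and Ctsg to 0.26 and 0.16 in these settings and to 0.014 without doublets. With the same stage weights Elane was at 0.021, Lcn2 at -0.017, Mmp8 at -0.022 and Mmp9 at -0.058, and Mmp9 was at -0.0062 with thinning. All these genes had the opposite sign in the report's setting.

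In cells of other lineages the sign depended on the setting. The primary set (-0.27) was at -0.66 at resolution 0.25, -0.061 without doublets, 0.056 with thinning and 0.051 as a mean over cells. The secondary set (-0.56) was at -0.52 at resolution 0.25, and turned to 1.10 without doublets, 0.051 with thinning, 0.022 as a mean over cells and 0.14 without cells at 1% or more of the 10 genes. The tertiary set (-0.45) was at -0.053 without doublets, -0.28 with thinning, -0.077 as a mean over cells and -1.002 without cells at 1% or more.

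For immature over mature cells, the primary ratio (-1.32) was -0.59 with the members kept for clustering, -1.04 with thinning and -0.79 with the other denominator. The secondary ratio (2.76) was 2.33 with the members kept, 3.56 at resolution 0.25, 2.80 without doublets, 3.54 with thinning, 3.29 with the other denominator and 3.53 as a mean over cells. The tertiary ratio (-0.72) was -1.44 with the members kept, -0.27 with thinning, -0.19 with the other denominator and -0.24 as a mean over cells. It turned to 0.36 at resolution 0.25, where the immature class was larger (723 ND and 738 HFD cells). In cycling precursor-like cells the count of members past 1.5-fold went from 2 to 1 without doublets, because Mmp8 (1.89) fell under the 200-UMI minimum. The share over all genes tested was 3.17% with and 2.96% without doublets. The settings without cluster 14, without cells at 1% or more and the counts without doublets were chosen after the data were seen, and causes were not tested. At resolutions 0.25 and 1 no cluster met the limits for a progenitor-like name, so the granulocytic class there lacks those cells outside the cycling precursor-like cluster.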
